A study of Gallus gallus with 30 samples.

Results

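The 7 transcripts described here are the messengers of the mitochondrially encoded subunits of complex I (ND1, ND2, ND3, ND4, ND4L, ND5 and ND6), measured in the otocyst, the epithelial vesicle of the chicken embryo that forms the inner ear. They were chosen by transcript identifier and are 7 of the 28756 transcripts listed in each library. The question was how their levels varied over the gain and loss of Notch activity and above all after 24 h of a γ-secretase inhibitor. The set comprised 30 RNA-Seq libraries, each from a single White Leghorn otocyst, from 15 embryos in 5 sets of 3. In every embryo the right otocyst was treated and the left otocyst was its control, so treatment and body side cannot be told apart.

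In 9 embryos the right otic cup was electroporated in ovo. NICD1 otocysts received the plasmid pCAB-NICD1-IRES-mRFP1, which drives the intracellular part of chicken NOTCH1 (NICD1) together with a red fluorescent protein, and were taken 6 h later (labelled E2.5) or 24 h later (labelled E3). The mRFP1 otocysts received the control plasmid, which carries the fluorescent protein alone, and were taken 24 h later (E3). The left otocysts of these embryos were untransfected. Transfection was mosaic, so a NICD1 otocyst also held untransfected cells. In the other 6 embryos both otocysts were cultured for 6 h or 24 h (both labelled E2.5). The right otocyst was given 10 µM LY411575 and the left the solvent DMSO. In the study E2.5 is the age at dissection, before culture, so this label leaves out the time in culture. The in ovo otocysts were electroporated at E2, and their labels rise with the time since then. LY411575 blocks γ-secretase, the protease that releases the intracellular domain of Notch receptors. The label of 4 of the 6 inhibitor samples names a compound with another last digit, and all were treated as LY411575 because the treatment protocol names no other compound.

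Complex I (NADH:ubiquinone oxidoreductase) is the entry point of the respiratory chain for electrons from NADH, and couples their transfer to the pumping of protons across the inner mitochondrial membrane. Most of its subunits are made from nuclear genes and imported, but the hydrophobic core of its membrane arm is made from the ND genes of the mitochondrial genome. ND1 lies where the membrane arm meets the matrix arm, beside the ubiquinone site. ND3, ND4L and ND6 are small subunits close to that junction. ND2, ND4 and ND5 are the antiporter-like subunits along the membrane arm. The ND genes are transcribed as parts of long precursors that are cut into separate messengers, and in vertebrates ND6 is read from the opposite strand to the others. In mammals ND4L and ND4 stay together on a shared messenger.

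In the files these messengers are ENSGALT00000080481.1 (ND1, 975 bases), ENSGALT00000082968.2 (ND2, 1039 bases), ENSGALT00000049217.1 (ND3, 351 bases), ENSGALT00000079811.1 (ND4L, 297 bases), ENSGALT00000063913.1 (ND4, 1378 bases), ENSGALT00000047001.1 (ND5, 1818 bases) and ENSGALT00000068151.1 (ND6, 522 bases). The study's tables pair 2 of these identifiers, those of ND3 and ND5, with their names, and the other names come with the choice of members. In 6 of the 7 the length equals that of the mitochondrial gene of that name in RefSeq, and for ND3 it is 351 against 352 bases. All 210 estimated counts of the 7 transcripts were whole numbers within 1e-06, as read assignment leaves them when no read is shared with another listed transcript. Since the kit marks no strand, ND6 and the RNA opposite to it were counted together.

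Library size ranged between 8749489 and 18224622 estimated counts, with between 19055 and 22073 detected transcripts (an estimated count of at least 1). The markers of the otic epithelium (SOX10, DLX5, LMX1A, FGF3, FGF10, BMP4 and CDH1) were all detected in every library. HES5, a direct Notch target and the check of the inhibitor, lay at 8.39 to 17.2 TPM (a transcript level scaled for transcript length and library size) in the DMSO otocysts of 24 h. With LY411575 for 24 h it lay at 0.363 to 0.883 TPM, and its log2 fold change was -4.30 ± 0.64 (SE) with an adjusted p of 0.00804. The treated libraries of embryos 32 and 34 held fewer detected transcripts (19917 and 19055) than their DMSO partners (21282 and 20706), while both libraries of embryo 33 held 21176. Their fragments were also longer, with a mean of 232 and 243 bases against 201 and 199 bases in the partners. Results that rest on embryos 32 and 34 are therefore given with and without them.

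In the 18 otocysts that developed in ovo the 7 transcripts were abundant. Together they took 0.387% to 0.714% of the estimated counts of a library and summed to between 7990 and 15204 TPM. ND1 had a median of 2630 TPM (range 1838 to 3646), ND4L of 2342 TPM (1621 to 2843) and ND4 of 1981 TPM (1364 to 2374). ND2 had a median of 1938 TPM (544 to 2745) and ND3 of 1486 TPM (1184 to 2250). ND5 and ND6 were the lowest of the 7, with medians of 944 TPM (610 to 1335) and 542 TPM (339 to 693). By mean TPM in the 9 untransfected otocysts ND1 ranked 20th of all transcripts, and ND6, the lowest of the 7, ranked 268th.

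After 24 h in culture with LY411575 every ND transcript was lower than in the DMSO-treated otocyst of the same embryo, in 3 of 3 embryos for each of the 7. ND2, ND3, ND4, ND4L, ND5 and ND6 fell, by 1.82-fold (ND5) to 3.65-fold (ND4L), and ND1, which was 1.87-fold lower, missed the threshold. These calls rest on embryos 32 and 34, since none of the 7 was called without either of them. The calls over all transcripts also dropped there, from 736 to 106 without embryo 32 and to 340 without embryo 34. Leaving out 1 embryo moved the log2 fold change of ND4L between -2.65 and -1.35 and that of ND5 between -1.1 and -0.66. In TPM the treated and DMSO groups did not overlap for any of the 7, whereas 11.6% of 18740 transcripts lay lower without overlap in this comparison. In a bulk library fewer cells of a type and less RNA per cell cannot be told apart.

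**Figure D1:**
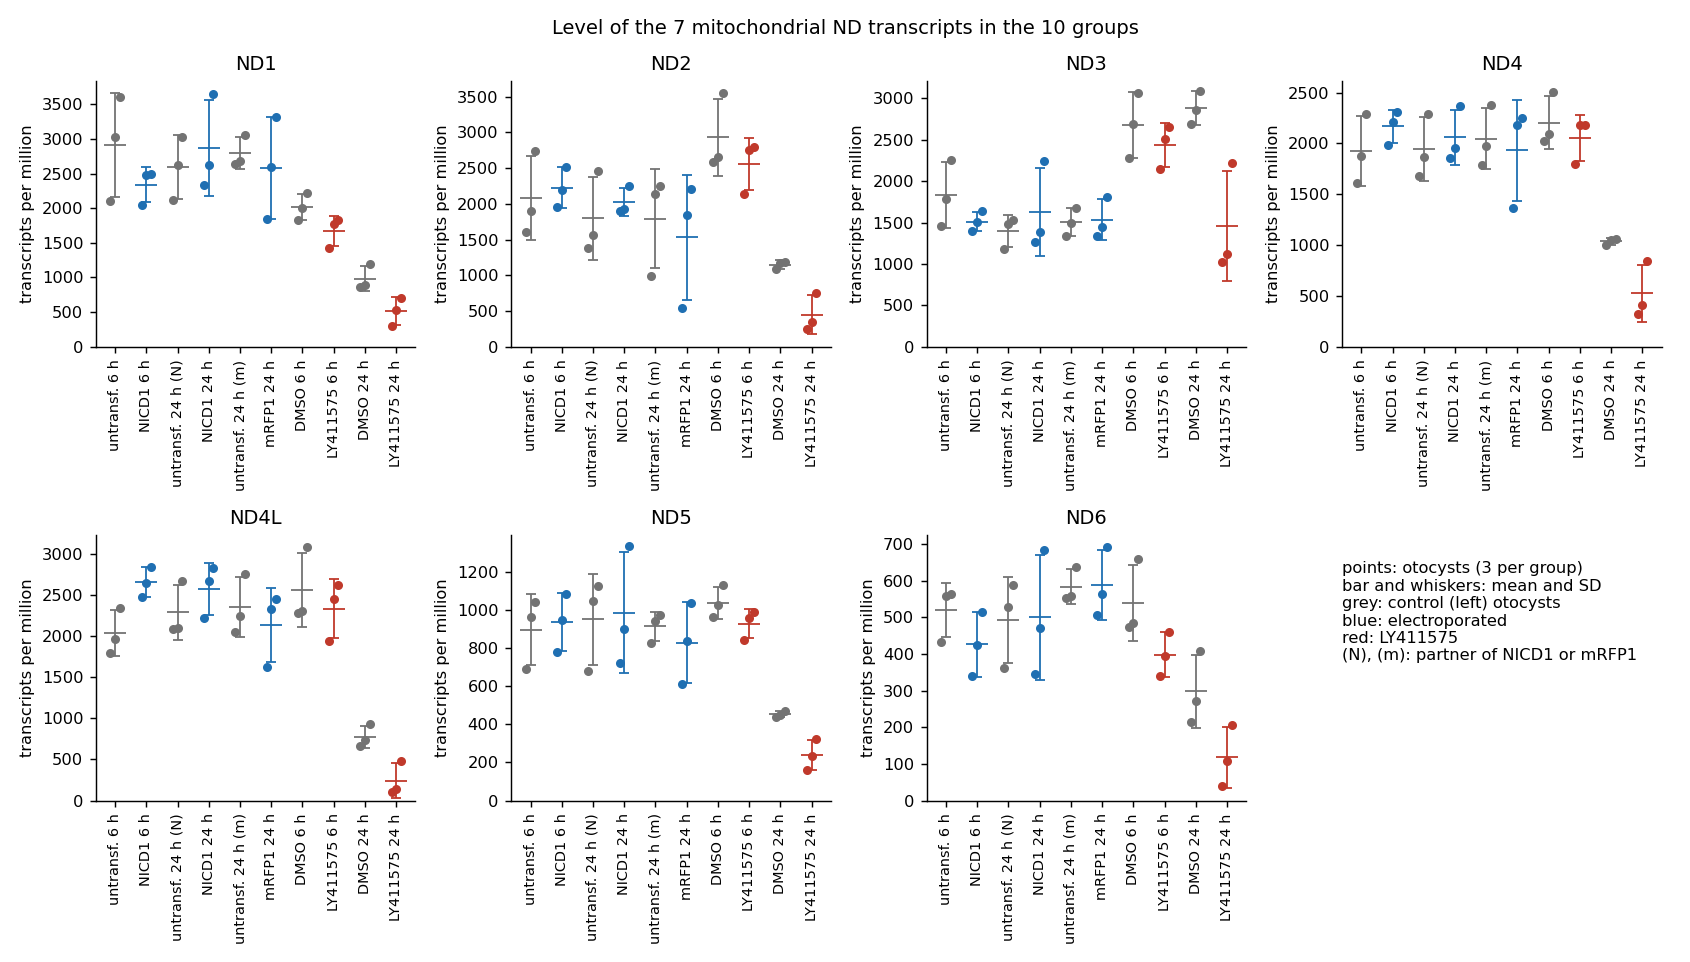
Level of each ND transcript (vertical axis, TPM) in the 10 groups (horizontal axis), with 1 point per otocyst and the mean ± SD of 3 otocysts as a bar with whiskers. In LY411575 24 h, at the right of each panel, all points lie below the DMSO 24 h points, and DMSO 24 h lies below the in ovo groups for ND1, ND4, ND4L and ND5 but not for ND3.

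Among the subunits at the junction of the arms, ND1 was at 1191, 857 and 897 TPM in the DMSO otocysts of embryos 32, 33 and 34 and at 528, 708 and 306 TPM in the treated ones. The difference was -0.91 ± 0.24 on the log2 scale (adjusted p = 0.0623), so ND1 did not pass the threshold of 0.05 although its groups did not overlap. ND3 was at 2692, 3095 and 2863 TPM with DMSO and at 1122, 2218 and 1028 TPM with LY411575 (log2 fold change -0.99 ± 0.20, adjusted p = 0.0228). ND4L, the shortest of the 7, was at 735, 664 and 927 TPM with DMSO and at 135, 485 and 109 TPM with LY411575. These levels rest on 1274, 994 and 904 estimated counts with DMSO and on 215, 773 and 100 with the inhibitor. ND4L thus showed the lowest fitted change of the 7 (log2 fold change -1.87 ± 0.36, adjusted p = 0.0192). The treated otocyst of embryo 33 stood well above those of embryos 32 and 34. On the log2 scale the right to left ratios of scaled ND4L counts were -2.33, -0.39 and -2.98 in embryos 32, 33 and 34. Each SE and adjusted p uses a spread estimated over all 30 libraries, so neither measures the spread of these 3 pairs alone. ND6 was at 408, 272 and 214 TPM with DMSO and at 107, 205 and 39.9 TPM with LY411575 (log2 fold change -1.48 ± 0.34, adjusted p = 0.0375). Its lowest library, the treated otocyst of embryo 34, held 84 estimated counts.

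The antiporter-like subunits fell as well. ND2 was at 1190, 1178 and 1085 TPM with DMSO and at 347, 758 and 247 TPM with LY411575 (log2 fold change -1.42 ± 0.27, adjusted p = 0.0182). ND4 was at 1063, 1001 and 1052 TPM with DMSO and at 415, 847 and 321 TPM with LY411575 (log2 fold change -1.0 ± 0.22, adjusted p = 0.0301). ND5, the longest of the 7, was at 471, 446 and 440 TPM with DMSO and at 234, 321 and 161 TPM with LY411575 (log2 fold change -0.86 ± 0.17, adjusted p = 0.0192). For each of these subunits the DMSO otocysts lay close together and embryo 33 had the highest treated value.

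By edgeR's quasi-likelihood test with Benjamini-Hochberg adjustment over 21637 transcripts, 6 of the 7 ND transcripts were called lower after 24 h of LY411575, where 3.4% of all transcripts were called and 1.85% were called lower. The median log2 fold change was -1.0 over the 7 and -0.03 over all transcripts. The size of the response differed between embryos. The right to left ratio of TMM-scaled counts was 0.199 (ND4L) to 0.551 (ND5) in embryo 32, 0.127 (ND4L) to 0.400 (ND5) in embryo 34, and 0.677 (ND2) to 0.885 (ND4) in embryo 33. In the other 12 embryos the ratios of the 7 transcripts ranged from 0.507 (ND6) to 1.76 (ND4L). Set against the range of the same transcript in those 12 embryos, all 7 ratios of embryos 32 and 34 lay below it. In embryo 33 ND4L (0.764, against 0.811 as the lowest elsewhere) and ND5 (0.749 against 0.781) lay below it, and the other 5 inside it. How many of all transcripts lay below their own range was not counted. These counts are therefore not shown to be particular to the ND transcripts.

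The calls depended on which embryos entered. All 7 transcripts were called without embryo 33, where 1780 of all transcripts were called, against 736 with all embryos. None of the 7 was called without embryo 32 (106 of all transcripts) or without embryo 34 (340 of all transcripts). The number of ND calls thus moved with the number of all calls. With embryo 33 as the only 24 h inhibitor pair the log2 fold changes ranged from -0.59 (ND2) to -0.21 (ND4). None of the 7 was called when the 6 libraries of this comparison were fitted alone, a fit that called 0 of all transcripts. Only ND4L was called in the fit that did not pair the otocysts of an embryo, which called 308 of all transcripts. The lower number of detected transcripts and the longer fragments of the treated libraries of embryos 32 and 34 move with these larger changes. Another fit held an offset for the effective length of each transcript in each library, which depends on fragment length. There 6 of the 7 were called, and 749 of all transcripts, against 736 in the reported fit. This offset adjusts only the effective length used in counting. Otherwise the parts of fragment length and of the number of detected transcripts in the result were not tested.

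**Figure D2:**
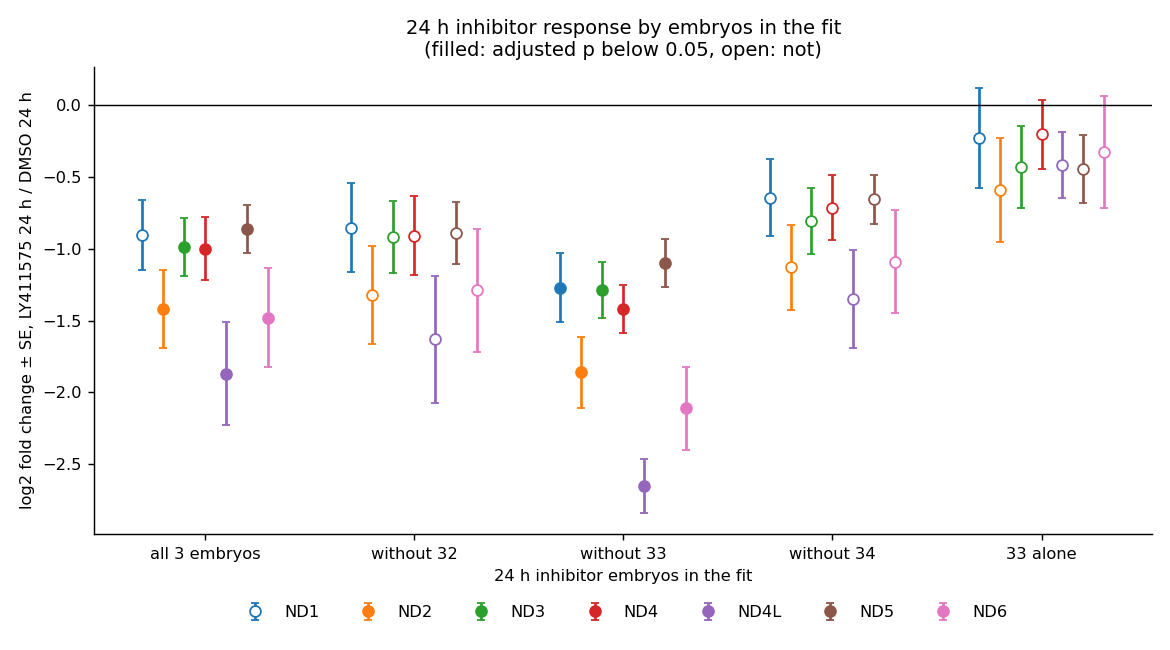
Log2 fold change of each ND transcript after 24 h of LY411575 (vertical axis, ± SE) with all 3 embryos, with each left out in turn, and with embryo 33 alone (horizontal axis), with calls filled. All 7 are filled without embryo 33, and none is filled without embryo 32 or 34 or with embryo 33 alone.

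After 6 h of LY411575 no ND transcript was called. The log2 fold changes lay between -0.45 ± 0.32 (ND6) and -0.11 ± 0.21 (ND4), and 0 of the 7 were called where 0.0786% of all transcripts were. In embryos 1 and 5 all 7 right to left ratios were below 1, with the lowest at 0.507 (ND6 in embryo 5). In embryo 3 the ratios were split, with 3 below 1 and 4 above. In TPM ND1 and ND6 lay lower with LY411575 than with DMSO without overlap, as did 5.37% of transcripts. ND6 was at 339 to 461 TPM with the inhibitor and at 473 to 659 TPM with DMSO. HES5 had by then reached 0 to 0.204 TPM against 49.4 to 104 TPM with DMSO. The responses at 24 h and 6 h were set against each other in the same fit. The difference of the log2 fold changes, 24 h minus 6 h, was -1.71 ± 0.48 for ND4L and -1.22 ± 0.37 for ND2, with -0.62 ± 0.34 (ND1) as the smallest in size. None of the 7 differences passed the threshold (adjusted p = 0.204 for ND4L), where 0.111% of all transcripts did, so the inhibitor response was not shown to differ between the durations. Without embryo 33, 6 of the 7 differences were called, where 578 of all transcripts were called against 24 with all embryos.

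**Figure D3:**
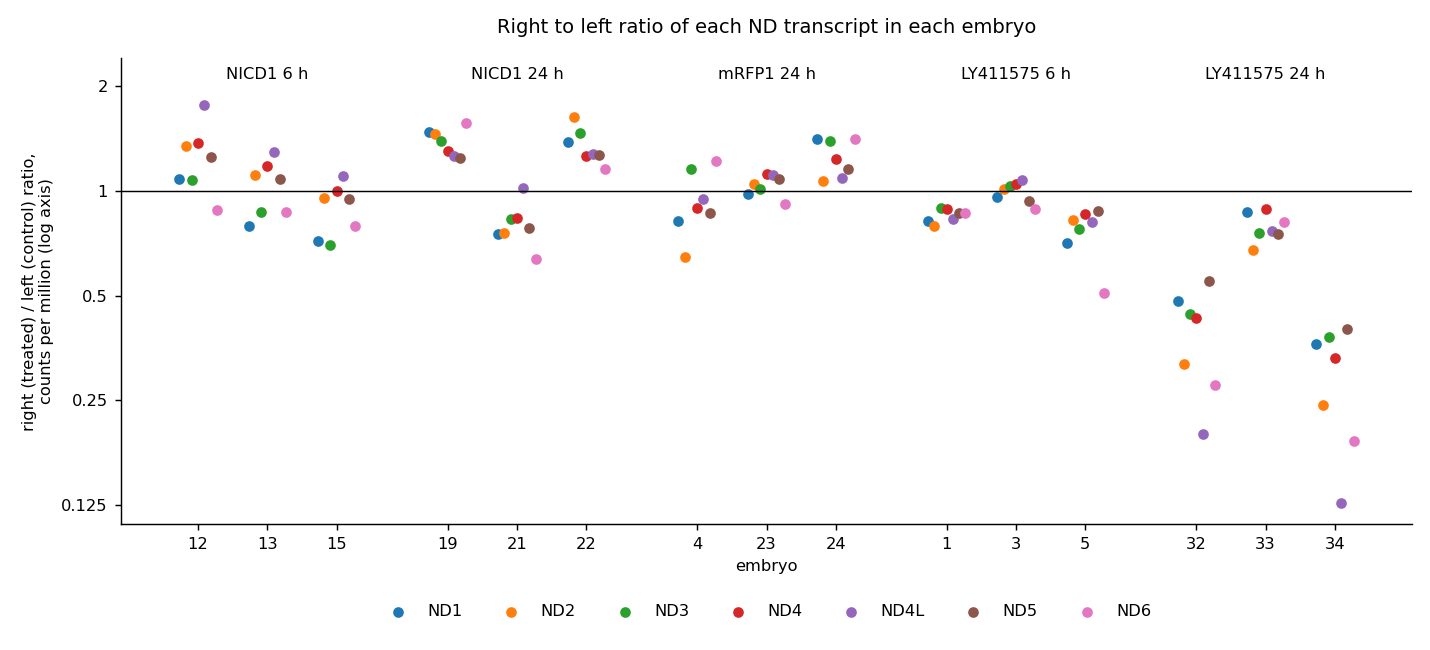
Right to left ratio of each ND transcript (vertical axis, TMM-scaled counts, log axis) in each of the 15 embryos (horizontal axis), grouped by treatment. Embryos 32 and 34 lie between 0.127 and 0.551, embryo 33 between 0.677 and 0.885, and the other 12 embryos between 0.507 and 1.76.

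In ovo, neither plasmid gave a called change of an ND transcript. Of 11 Notch pathway transcripts, HES5 among them, 0 were called after NICD1 at 6 h or at 24 h. Their median log2 fold change was -0.16 at 6 h and 0.36 at 24 h. These transcripts thus did not show that Notch activity was raised in the NICD1 otocysts. How ND transcripts respond to raised Notch activity was therefore not tested. At 6 h after NICD1 electroporation the log2 fold changes ran from -0.24 ± 0.32 (ND6) to 0.44 ± 0.32 (ND4L), and 0 of the 7 were called, with 0% of all transcripts called. edgeR gave 855 transcripts an unadjusted p below 0.05 in this comparison, and DESeq2 called 125 and none of the 7. ND4L was at 2843, 2648 and 2484 TPM in the NICD1 otocysts of embryos 12, 13 and 15 and at 1798, 1964 and 2346 TPM in the untransfected partners, groups that did not overlap, as was so for 9.93% of transcripts. It had the highest right to left ratio of the 7 in each of these embryos (1.76, 1.29 and 1.10).

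At 24 h after electroporation the direction differed between embryos of a set. NICD1 gave log2 fold changes from 0.07 ± 0.32 (ND6) to 0.28 ± 0.26 (ND2), with 0 of the 7 called and 0% of all transcripts called (577 with an unadjusted p below 0.05, and 79 called by DESeq2, none of them among the 7). In embryos 19 and 22 all 7 ratios were above 1, between 1.16 and 1.63, and in embryo 21 6 of 7 were below 1, down to 0.638 for ND6. The control plasmid gave -0.16 ± 0.26 (ND2) to 0.24 ± 0.20 (ND3), with 0 of the 7 called and 0% of all transcripts called (2042 with an unadjusted p below 0.05, and 583 called by DESeq2, none of them among the 7). Under total count scaling the median of all transcripts in this comparison moved to -0.15 and, on log2(TPM + 1), to -0.16, and ND1, ND4, ND4L and ND5 changed sign with it. The NICD1 and mRFP1 responses at 24 h differed by -0.15 ± 0.45 (ND6) to 0.44 ± 0.37 (ND2) on the log2 scale, with 0 of the 7 called where 0.00462% of all transcripts were.

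The control otocysts were also compared among themselves, since the inhibitor acted on otocysts that were already in culture. The 15 left otocysts, each from another embryo, were fitted by group. DMSO otocysts of 24 h were compared with DMSO otocysts of 6 h, and both with the untransfected otocysts of the same duration. Culture and experiment change together in both comparisons with untransfected otocysts, so they cannot be told apart. At 24 h the labelled stage differs as well (E2.5, which leaves out the time in culture, against E3). DMSO otocysts of 24 h and of 6 h differ in time in culture, age at harvest and embryos, which cannot be told apart either. The contrasts of DMSO 24 h share its otocysts with the inhibitor comparison.

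After 24 h in DMSO, ND1, ND2, ND4, ND4L and ND5 were lower than after 6 h in DMSO. ND4L was at 3083, 2288 and 2309 TPM in the otocysts of 6 h and at 735, 664 and 927 TPM in those of 24 h (log2 fold change -1.59 ± 0.17, adjusted p = 7.98e-05). The other called changes were -1.16 ± 0.31 (ND2), -1.0 ± 0.18 (ND5), -0.89 ± 0.16 (ND4) and -0.86 ± 0.20 (ND1). ND6, at -0.72 ± 0.26, did not pass the threshold (adjusted p = 0.0739), and ND3 had a log2 fold change of 0.24 ± 0.16 and was not called. These 5 calls of 7 compare with 20.7% of transcripts called and 9.6% called lower. ND2 was not called without embryo 1 or without embryo 34 (adjusted p up to 0.0646), and ND6 was called without embryo 32 (adjusted p = 0.0161).

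Against the untransfected otocysts of 24 h, the DMSO otocysts of 24 h were lower for ND1, ND4, ND4L, ND5 and ND6 and higher for ND3, 6 calls of 7 where 31.4% of transcripts were called, 15% lower and 16.4% higher. ND1 was 2.70-fold lower (log2 fold change -1.43 ± 0.18, adjusted p = 9.25e-05) and ND4L 3.09-fold lower (-1.63 ± 0.15, adjusted p = 1.24e-05). ND4, ND5 and ND6 had log2 fold changes of -0.91 ± 0.14, -0.99 ± 0.16 and -0.87 ± 0.24. ND2, at -0.62 ± 0.27, was not called (adjusted p = 0.0997), but was without embryo 4 (adjusted p = 0.0158). ND6 was not called without embryo 33 or without embryo 34 (adjusted p up to 0.0701). ND3 went the other way. It lay between 1184 and 1680 TPM in the 6 untransfected otocysts of 24 h and between 2692 and 3095 TPM in the 3 DMSO otocysts, 1.94-fold higher (log2 fold change 0.95 ± 0.14, adjusted p = 0.000222).

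At 6 h no ND transcript was called between DMSO and untransfected otocysts, where 9.55% of transcripts were. ND1 had the lowest value there, -0.62 ± 0.20 (adjusted p = 0.0669), and ND3 the highest, 0.46 ± 0.16 (adjusted p = 0.0959). DESeq2 called both. Between untransfected otocysts of 24 h and 6 h the changes lay between -0.25 ± 0.14 (ND3) and 0.28 ± 0.14 (ND4L), with 0 of the 7 called and 0% of all transcripts called by edgeR (1135 with an unadjusted p below 0.05, and 103 called by DESeq2).

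**Figure D4:**
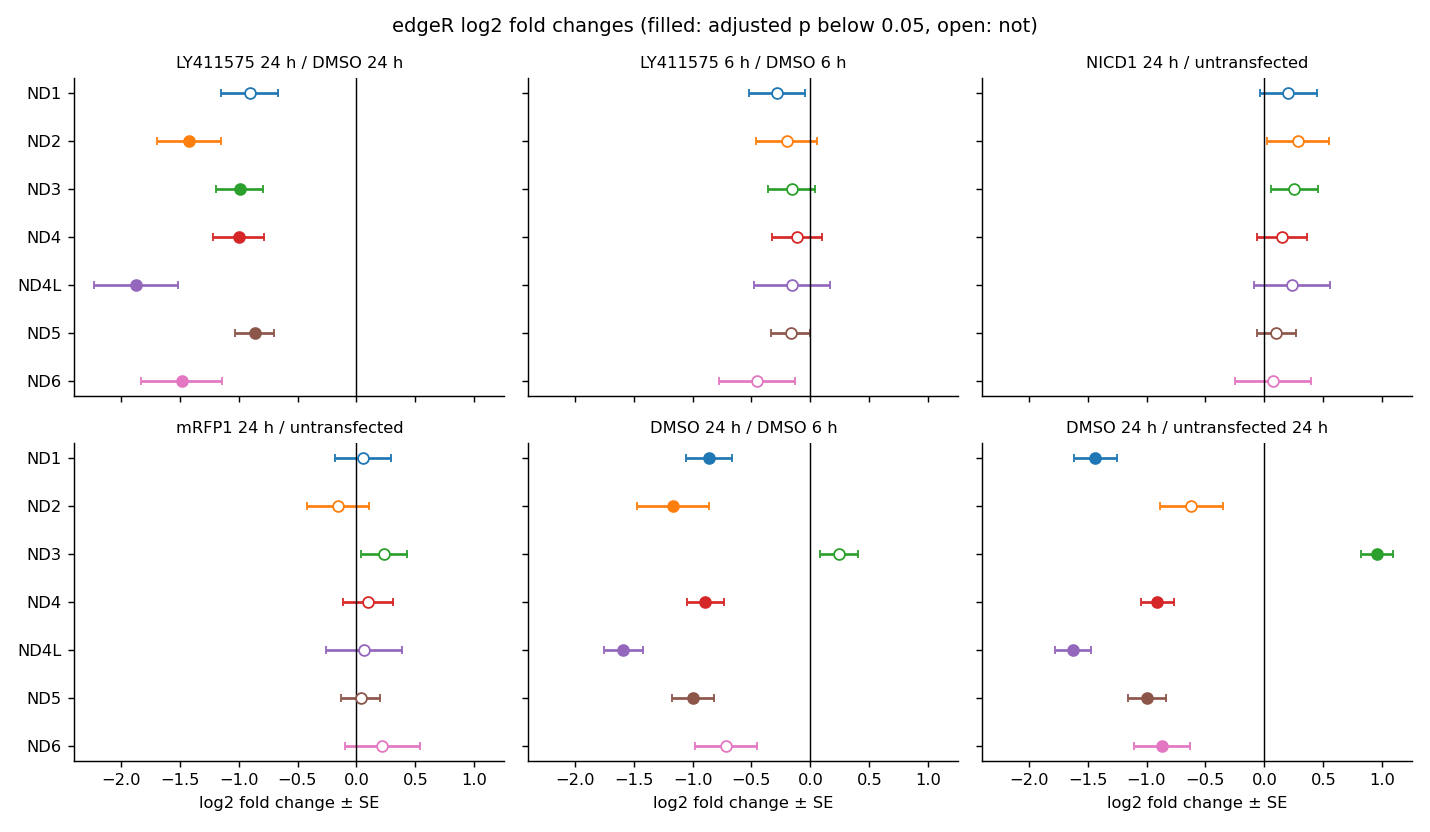
Log2 fold changes (horizontal axis, ± SE) of the 7 ND transcripts (vertical axis) in 6 comparisons, with transcripts at an adjusted p below 0.05 filled. All 7 lie below 0 after 24 h of LY411575 and 6 of them are filled. For DMSO 24 h against untransfected 24 h, ND3 lies at 0.95 and the other 6 below 0.

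Ordered by mean TPM over the 10 groups, LY411575 24 h came last for ND1, ND2, ND4, ND4L, ND5 and ND6, and DMSO 24 h next to last. The ranges of these neighbours did not overlap for any of the 6, where 11.6% of 18740 transcripts lay lower without overlap. For ND1, ND4, ND4L and ND5 the range of DMSO 24 h also lay apart from that of the group above it, which for ND2 and ND6 it did not. That group differs between the transcripts, and the share of all transcripts that lay apart in this way was not counted. Among the groups above, every pair of neighbours overlapped, except DMSO 6 h and LY411575 6 h for ND1 (1833 to 2217 TPM against 1428 to 1831 TPM). For ND3 the order was another. DMSO 24 h came first (2883 ± 202 TPM, SD, n = 3), followed by DMSO 6 h (2678 ± 397 TPM) and LY411575 6 h (2437 ± 262 TPM). LY411575 24 h (1456 ± 662 TPM) lay ninth, among the in ovo groups, and all neighbours in this order overlapped.

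The make-up of the ND pool also differed between the cultures and the otocysts in ovo. ND3 made up 10.9% to 18.1% of the summed ND TPM in the 18 otocysts in ovo, 18.1% to 20.2% in the 6 cultures of 6 h, and 34.7% to 46.5% in the 6 cultures of 24 h. Its level relative to ND4 was 0.616 to 1.06 in ovo, 1.13 to 1.29 in the cultures of 6 h, 2.53 to 3.09 in DMSO of 24 h and 2.62 to 3.20 in LY411575 of 24 h. The ND3 to ND4 ratio thus separated the durations of culture without overlap, and its values with DMSO and with LY411575 overlapped at both. ND4L relative to ND4 behaved otherwise. This ratio was 1.02 to 1.45 in all 24 otocysts that were not cultured for 24 h and 0.663 to 0.881 in DMSO of 24 h. It was 0.325, 0.573 and 0.339 in the LY411575 otocysts of embryos 32, 33 and 34, below all DMSO otocysts. The ratios of embryos 32 and 34 rest on 215 and 100 ND4L counts, in the libraries with the longest fragments (232 and 243 bases). Without these embryos the separation rests on embryo 33 alone, at 0.573 against 0.663 in its DMSO otocyst. The part of fragment length in this ratio was not tested. The ND1 to ND2 ratio was 0.985 to 3.38 in ovo (up to 1.91 without embryo 4) and 0.624 to 0.774 in the 6 cultures of 6 h. At 24 h it overlapped with the range in ovo, at 0.727 to 1.00 with DMSO and 0.934 to 1.52 with LY411575.

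**Figure D5:**
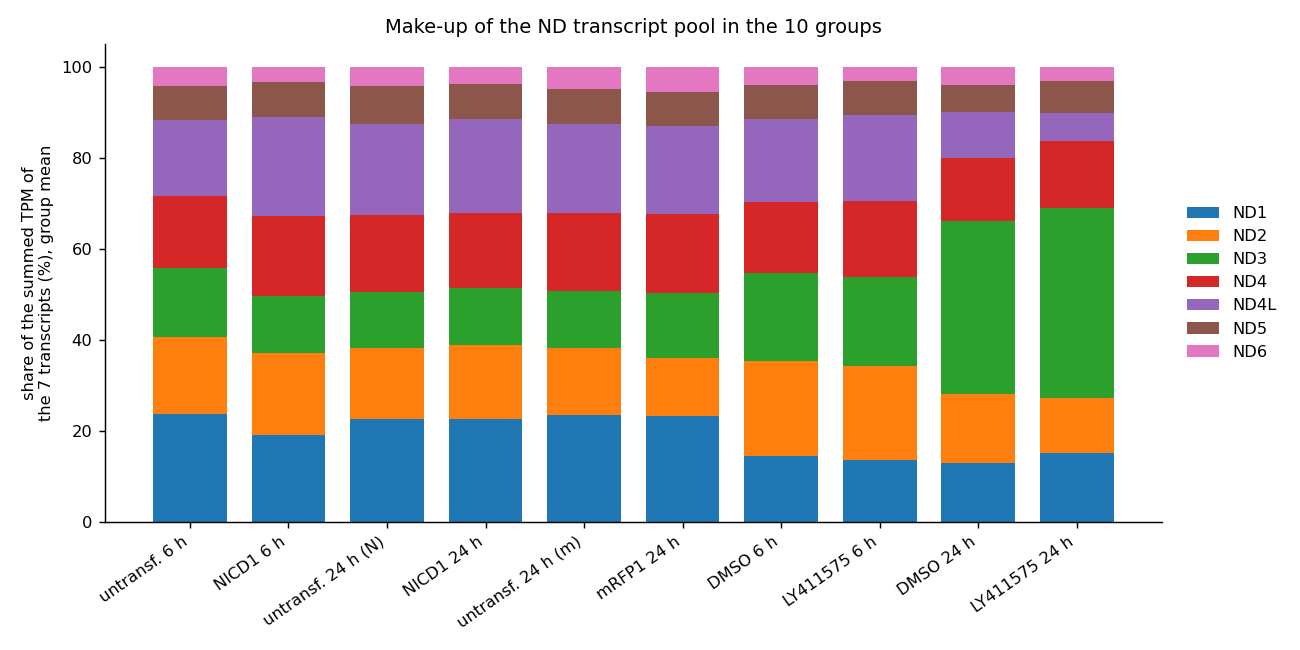
Share of each ND transcript in the summed TPM of the 7 (vertical axis, %, group means of 3 otocysts, stacked) in the 10 groups (horizontal axis). ND3 takes 12.3% to 15.0% in the in ovo groups, 38.1% in DMSO 24 h and 41.8% in LY411575 24 h, while ND4L takes 16.9% to 21.8% in ovo, 10.2% in DMSO 24 h and 6.12% in LY411575 24 h.

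As a share of the whole library, the 7 transcripts took 0.620% ± 0.068 of the estimated counts in DMSO of 6 h, 0.299% ± 0.023 in DMSO of 24 h and 0.145% ± 0.066 in LY411575 of 24 h (SD, n = 3). Their summed level was 7580 ± 148 TPM in DMSO of 24 h. In LY411575 of 24 h it was 2888, 5542 and 2212 TPM in embryos 32, 33 and 34. The spread over embryos was therefore far wider with the inhibitor than with DMSO.

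Among messengers of nuclear-encoded mitochondrial proteins, calls after 24 h of LY411575 went both ways. Names were at hand only for transcripts in the study's tables of changed genes, so the lists below were drawn from these samples, and neither their directions nor their medians are independent evidence. None of the nuclear-encoded complex I subunits could be named. In this comparison 3.4% of all transcripts were called and 1.85% were called lower. Of 15 other mitochondrial proteins 4 rose and 3 fell after 24 h of LY411575, with a median log2 fold change of 0.03. FDXR, which passes electrons to ferredoxin, rose by 0.80 ± 0.13 on the log2 scale. PPIF, a matrix prolyl isomerase of the permeability pore, fell by 0.96 ± 0.23 and HSPD1, the matrix chaperonin, by 0.73 ± 0.15. MTERF2, a protein of the mitochondrial transcription termination factor family, was at -0.83 ± 0.41 (adjusted p = 0.329), and GRSF1, which in human cells binds mitochondrial RNA including that of ND6, at -0.06 ± 0.41 (adjusted p = 0.994). The summed level of the 15 was 1660 to 1755 TPM with LY411575 and 1538 to 1747 TPM with DMSO. Of 6 transcripts of glycolysis and lactate transport 5 were not called, and PFKFB3, which makes an activator of phosphofructokinase, fell by 2.26 ± 0.44. Of 11 Notch pathway transcripts 4 fell (HES5, HES4, NOTCH1 and NOTCH2) and none rose, where 1.85% of all transcripts were called lower.

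Markers of cell types differed between otocysts cultured for 24 h and untransfected otocysts in ovo. At 6 h none of the markers below was called between DMSO and untransfected otocysts, where 9.55% of all transcripts were. The summed level of 5 transcripts of otic neuroblasts (NEUROD1, NHLH1, EBF2 and, by more than one transcript, EBF3) was 1119 to 1491 TPM in LY411575 of 24 h, 863 to 1050 TPM in DMSO of 24 h and 144 to 265 TPM in the untransfected otocysts of 24 h. All 5 were called higher in DMSO than in untransfected otocysts at 24 h, where 16.4% of all transcripts were, and 2 of the 5, both of EBF3, were called higher with LY411575 than with DMSO, where 3.4% of all transcripts were called in either direction. The 7 markers of the otic epithelium summed to 191 to 308 TPM with LY411575, 221 to 344 TPM with DMSO and 500 to 860 TPM in the untransfected otocysts of 24 h. The 3 markers at hand of the periotic mesenchyme (COL1A2, LUM and DCN) summed to 66.2 to 106 TPM, 110 to 131 TPM and 277 to 503 TPM in the same groups. Between DMSO and untransfected otocysts of 24 h, 5 of the 7 epithelial markers fell and 1 rose, and 2 of the 3 mesenchymal markers fell, where 15% of all transcripts were called lower. Between LY411575 and DMSO none of these 10 was called. No marker of these lists was at 0 in a whole group, and their part in the ND levels was not tested.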

How the data were processed

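Total RNA of single otocysts was converted to cDNA with a SMART-Seq v4 kit, which does not mark strand, and sequenced with paired ends. Tools named in the submitters' processing notes are bcl2fastq and kallisto (version not stated there), with the build GRCg6a. For each otocyst the authors deposited the length, effective length, estimated count and TPM of 28756 transcripts. No normalisation was applied by the authors to the deposited estimated counts. The deposited TPM, used here for levels, were scaled in kallisto by library size and effective length.

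Estimated counts were rounded. In R 4.3.3 with edgeR 4.0.16, filterByExpr (minimum count 10) chose the transcripts, which were scaled by TMM and fitted by edgeR's quasi-likelihood model with 1 term per embryo and 1 per treatment (30 libraries, 21637 transcripts, 10 residual degrees of freedom). The 15 control otocysts were fitted by group (20710 transcripts). Adjustment was by Benjamini-Hochberg, over every transcript tested, and a call is an adjusted p below 0.05. The SE was obtained from the log2 fold change and its F statistic, as their quotient after taking the root of F. It uses a spread estimated over all libraries of the fit, not over those of the comparison alone. Groups and pairs were taken from the sample labels. Right and left otocysts of an embryo form a pair by design. Their deviations from the group means correlated above 0.1 in 13 of 15 pairs (r from 0.042 to 0.515). No libraries of a group agreed within sampling noise (chi-square per degree of freedom at least 13.0). On simulated counts of 21637 transcripts the fit of LY411575 24 h against DMSO 24 h recovered 17% of changes of 1 on the log2 scale. It recovered 47% of changes of 2, with 1 false call among the unchanged transcripts. The changed transcripts were drawn at random from all those tested, and the simulated counts held no embryo effect. These rates therefore do not describe the ND transcripts. Overlap of TPM ranges was counted over 18740 transcripts with a mean estimated count of at least 10. Alternatives were DESeq2 1.42.0, limma 3.58.1 on voom weights and on log2(TPM + 1) and log2(TPM + 0.1), other scalings and filters, an effective length offset, no embryo term, and leaving out each embryo.

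The members, lists and named genes (the 7 ND transcripts, HES5, the lists as counts, and the 4 transcripts most like the mean of the 7) were chosen with earlier results of these data known. Gene names come from RefSeq symbols (GRCg7b, used for lengths only) and from the study's tables, of which only the names were used. They pair 835 transcripts with a name. No coordinates or sequences are reported.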

Additional observations from a re-analysis of the deposited data

How the results depend on the processing

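After 24 h of LY411575 the 7 log2 fold changes were negative under every alternative run. Against 6 ND transcripts called in the reported fit, 1 was called with no replicate block, that is without pairing, 0 with the 6 libraries of the comparison alone, 0 with embryo 33 as the only 24 h inhibitor pair (chosen after seeing the data) and 0 to 7 when each embryo was left out. The counts of all transcripts called there were 308 without pairing, 2665 by DESeq2, 0 for the 6 libraries alone, 106 to 1780 without 1 embryo and 77 for embryo 33, against 736. Calls split into 335 higher and 401 lower, into 211 and 621 under total count scaling, 526 and 285 by limma-voom, and 249 and 666 on log2(TPM + 1). For the difference of the inhibitor responses 0 ND transcripts were called, 2 by DESeq2 and 0 to 6 without 1 embryo. The counts of all transcripts called there were 24, 863 by DESeq2 and 8 to 578 without 1 embryo. ND1 and ND6 turned to 0.0645 and 0.14 with embryo 33 alone. For DMSO 6 h against untransfected 6 h DESeq2 called 2 (3272 of all transcripts), and 0 to 1 were called without 1 embryo (694 to 1516 of all). Without 1 embryo the ND calls were 4 to 6 for DMSO 24 h against 6 h (2955 to 3711 of all transcripts). They were 5 to 7 for DMSO 24 h against untransfected 24 h (5223 to 6601 of all transcripts).

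The other changes of sign were all of uncalled values near 0. For mRFP1 24 h, total count scaling gave -0.0492 (ND1), -0.0434 (ND4L), -0.00635 (ND4) and -0.0724 (ND5), and log2(TPM + 1) and log2(TPM + 0.1) both gave -0.15 (ND1), -0.15 (ND4L), -0.11 (ND4) and -0.17 (ND5). For NICD1 24 h both TPM scales gave ND6 -0.00832 and -0.00838. NICD1 minus mRFP1 gave ND4 -0.000648 without pairing, and DMSO 6 h against untransfected 6 h gave ND6 0.00402 with median-of-ratios size factors and 0.00393 by DESeq2. Leaving out 1 embryo gave ranges across 0 for NICD1 24 h (ND5 -0.022 to 0.33, ND6 -0.20 to 0.43) and for mRFP1 24 h (ND1 -0.16 to 0.24, ND2 -0.29 to 0.0879, ND5 -0.0509 to 0.17). It did so for their difference (ND1 -0.0265 to 0.47, ND3 -0.12 to 0.30, ND4 -0.0806 to 0.27, ND5 -0.0574 to 0.31, ND6 -0.42 to 0.23), for untransfected 24 h against 6 h (ND1 -0.22 to 0.0869, ND2 -0.30 to 0.0546, ND5 -0.0273 to 0.21) and for DMSO 6 h against untransfected 6 h (ND5 -0.0179 to 0.21, ND6 -0.20 to 0.10). Causes were not tested. With 3 embryos per set an uncalled ND change may have been missed.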

Other observations

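The transcripts whose levels most resembled the mean of the 7 ND transcripts were sought among 9426 transcripts with a mean of at least 10 TPM, by Pearson's r of log2(TPM + 1) over the 30 libraries. These libraries differ in depth, culture and stage, so r describes the set and is no test. The highest values were those of ENSGALT00000054361.1 (r = 0.939) and ENSGALT00000076413.1 (r = 0.936), which no table at hand names, HNRNPA2B1 (r = 0.935) and a further unnamed transcript (r = 0.932). HNRNPA2B1 encodes a nuclear RNA-binding protein that acts in splicing and RNA transport. Its transcript had a mean of 499 TPM in DMSO of 24 h and of 222 TPM in LY411575 of 24 h. The unnamed transcripts, in the order given, have lengths of 165, 684 and 1548 bases. Their means were 3438, 4330 and 2296 TPM in DMSO of 24 h and 1403, 2208 and 1270 TPM in LY411575 of 24 h. Whether they come from the mitochondrial genome was not tested. The lower level with LY411575 is thus not shown to be particular to the ND transcripts.

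ND2 stood low in both otocysts of embryo 4, at 992 TPM on the untransfected side and 544 TPM on the mRFP1 side, while the other 16 otocysts in ovo lay between 1376 and 2745 TPM. Its ratio to ND1 was low there as well, and ND1 itself was at 2643 and 1838 TPM. The low ND2 level was thus shared by both sides of this embryo.

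At 6 h after electroporation the ND3 to ND4 ratio was 0.706, 0.709 and 0.679 in the NICD1 otocysts of embryos 12, 13 and 15 and 0.910, 0.954 and 0.981 in their untransfected partners. The groups did not overlap. Nor did they for ND1 to ND2 (0.985 to 1.13 against 1.31 to 1.59) or ND4L to ND4 (1.122 to 1.431 against 1.023 to 1.118). At 24 h the ND3 to ND4 ratio overlapped for NICD1 (0.650 to 0.945 against 0.644 to 0.821). It also did for mRFP1 (0.616 to 1.06 against 0.678 to 0.836). How often ratios of other transcripts lie apart between these groups was not counted. No mRFP1 otocyst of 6 h was in the set, so NICD1 and electroporation cannot be told apart at this time.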
